A study of Mus musculus with 4 samples.

Results

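The complement genes C1ra, C1s, C4b, C2, C3, Cfb, Cfi, Cd55 and Cd59a were followed in mouse embryonic fibroblasts (MEFs) with and without cyclin G1 (CycG1) and cyclin G2 (CycG2). They were taken by gene name, as every non-control probe that the array files assign to these names, which gave 9 of 31829 gene names and 11 of 39429 probes. Each gene has a value on every array, and no gene was left out. In MEFs that lack both cyclins (DKO), 8 of the 9 genes had a higher signal than in the paired wild type (WT), and Cd59a had a lower one. Over all genes, 52.5% were higher. Of the 8, Cfb, Cfi and Cd55 were not told from background on the WT array and could only count as higher.

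Complement is a cascade of plasma proteins that marks surfaces for clearance and can open a pore in membranes. Its classical branch starts when the proteases C1r and C1s, bound to C1q, cleave C4 and C2, and all branches meet at C3, whose fragment C3b forms a further convertase with factor B. Host cells hold the cascade back with factor I, which degrades C3b and C4b, with CD55, which speeds the decay of convertases, and with CD59, which blocks assembly of the pore. The liver makes most of the plasma pool, and fibroblasts are among the cells that make components locally.

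MEFs of the C57BL/6J strain were collected during logarithmic growth. The MEFs labelled DKO came from CycG1-/-CycG2-/- mice, in which the CycG1 coding exons had been replaced by a resistance cassette, and were paired with a CycG1+/+CycG2+/+ WT (WT of DKO). The MEFs labelled G2KO came from CycG2-/- mice and were paired with a CycG2+/+ WT (WT of G2KO). Each of these 4 groups was a single Cy3-labelled hybridisation of total RNA, so that no ratio has a replicate check, no test between genotypes was made, and culture, embryo and genotype cannot be told apart. In RNA from a whole culture, fewer cells of a type and less RNA per cell cannot be told apart either.

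Levels are given as the signal of a probe divided by the 75th percentile of its array, and a probe that the scanner software did not mark as well above background is called dim. Between 65.0% and 72.2% of probes were well above background on an array, and the lowest level reached by such a probe was between 0.0066 and 0.0103. Ccng1, which encodes CycG1, had a level of 1.66 on the WT of DKO array and was dim on the DKO array, whereas its level was 1.98 on the G2KO-labelled array and 9.45 on the array labelled WT of G2KO. The Ccng2 probe was well above background throughout (0.0910 and 0.104 on the arrays labelled G2KO and WT of G2KO, 0.0619 and 0.0806 on the DKO and WT of DKO arrays) and does not tell knockout from WT. Over all probes, the G2KO-labelled array differed at least 4-fold from the WT of DKO array at 2.18% of probes and from the array labelled WT of G2KO at 5.5%, so the genotypes of the G2KO pair are called by their labels below, their directions rest on them, and every sign within that pair would turn if the labels were exchanged.

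Probes of C3, Cfb and C1ra are shown here, because these genes stand for the convertases and the first protease of the cascade and because the C3 probes gave different ratios. Each is the 60-base oligonucleotide printed on the array in the sense orientation, with its position on mm9. The C3 probes lie on the minus strand of chromosome 17 at 57343678-57343737 and, closer to the end of the transcript, at 57343416-57343475. The Cfb probe spans 34993502-34993858 of the same strand, which is longer than the probe, so it crosses at least 1 intron. The C1ra probe shown lies on the plus strand of chromosome 6 at 124472674-124472733.
C3, probe with 1 spot: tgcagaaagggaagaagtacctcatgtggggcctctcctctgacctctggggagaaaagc
C3, probe with repeated spots: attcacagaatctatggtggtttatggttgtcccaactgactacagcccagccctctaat
Cfb: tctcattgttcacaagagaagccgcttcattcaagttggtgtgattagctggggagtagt
C1ra, the second probe: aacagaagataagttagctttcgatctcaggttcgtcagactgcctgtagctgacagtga

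The initiating proteases of the classical pathway shared an order over the arrays. C1ra (chromosome 6, 124473052-124473111), the protease that activates C1s, had a level of 0.515 on the G2KO-labelled array, 1.20 on the array labelled WT of G2KO, 5.81 on the DKO array and 3.29 on the WT of DKO array. C1s (chromosome 6, 124480775-124480834), which cleaves C4 and C2, had levels of 0.543, 0.723, 6.76 and 4.05 in the same order. For both genes the DKO array was highest, the WT of DKO array came next, and the arrays of the G2KO pair were lowest. The log2 ratio of DKO over its WT was 0.82 for C1ra and 0.74 for C1s. This is smaller than the difference between the arrays labelled WT, where the log2 ratio of WT of DKO over WT of G2KO was 1.45 for C1ra and 2.49 for C1s. The second C1ra probe gave a log2 ratio of 0.83 for DKO over its WT, close to that of the first.

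C4b and C2 encode the substrates of C1s, which form the classical C3 convertase. C4b (chromosome 17, 34865328-34865387) had a level of 0.0366 on the G2KO-labelled array, 0.0267 on the array labelled WT of G2KO, 0.158 on the DKO array and 0.0774 on the WT of DKO array. C2 (chromosome 17, 34999575-34999634) had levels of 0.0196, 0.0281, 0.0610 and 0.0211 in that order. Both were well above background on all arrays and highest in DKO MEFs, with log2 ratios over the WT of DKO of 1.03 for C4b and 1.53 for C2. For C2 the other 3 arrays lay close together, with a log2 ratio of -0.41 between the arrays labelled WT, whereas that of C4b was 1.53. The transcripts listed for the C4b probe belong to both C4b and its near-identical copy C4a, so its signal cannot be assigned to either alone.

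C3, the component on which all branches converge, was the only one of the 9 genes whose DKO signal was shown to stand at least 4-fold above that of the paired WT. Its probe with 1 spot, the brighter one over the 4 arrays, had a level of 0.335 on the G2KO-labelled array, 0.391 on the array labelled WT of G2KO, 2.67 on the DKO array and 0.491 on the WT of DKO array. The DKO array stood 5.44-fold above its WT, a log2 ratio of 2.44, and the other 3 arrays lay within a narrow range. The probe with repeated spots, of which 8 to 10 were usable per array, had levels of 0.128, 0.0444, 4.98 and 0.274 in the same order. On it the log2 ratio of DKO over its WT was 4.18, a difference of 18.1-fold. Spots of this probe spread little within an array, from 4.62 to 5.22 on the DKO array and from 0.253 to 0.289 on the WT of DKO array, so the probes disagree by more than the spread between spots. They also disagree in the remaining comparisons, as the log2 ratio of the G2KO-labelled array over its WT was -0.22 on the probe with 1 spot and 1.53 on the other. Between the arrays labelled WT the ratios were 0.33 and 2.63. The direction in DKO MEFs was the same on both probes, and the size was not.

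**Figure D1:**
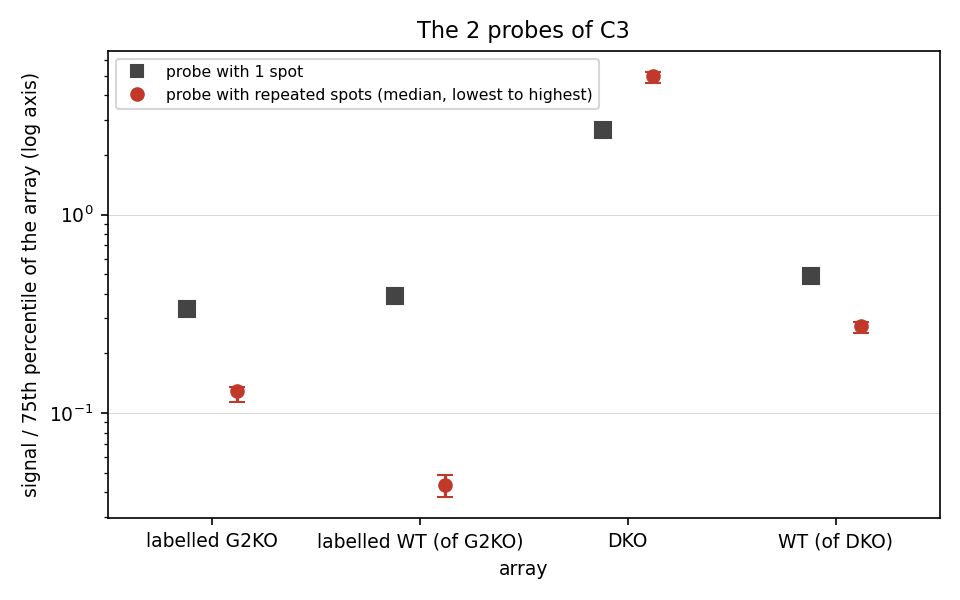
Level of the 2 C3 probes on each array, as signal over the 75th percentile on a log axis. Squares are the probe with 1 spot, and circles with bars are the median and range of the probe with 8 to 10 usable spots. Heights should be compared between arrays within a probe. On both, the DKO array is highest (2.67, and a median over spots of 5.00), and only the probe with repeated spots sets the array labelled WT of G2KO below the others.

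Cfb encodes factor B, the protease subunit of the alternative pathway convertase. Its level was 0.0361 on the DKO array, while it was dim at 0.0017 on the G2KO-labelled array, 0.00161 on the array labelled WT of G2KO and 0.0067 on the WT of DKO array. Cfb was thus measured in DKO MEFs alone, at least 3.52-fold above the WT of DKO, a log2 ratio of at least 1.82. Such a bound sets the measured side against the larger of the dim probe's own level and the lowest level told from background on its array.

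The regulators did not share a direction. Cfi (chromosome 3, 129578165-129578224), the protease factor I, had a level of 0.0213 on the DKO array and was dim on the other 3, with levels of 0.00132 to 0.00281. Cd55 (chromosome 1, 132335716-132335775), the decay-accelerating factor, had a level of 0.0232 on the DKO array and was dim on the other 3, at 0.00217 to 0.00663. DKO MEFs were at least 2.08-fold above their WT for Cfi and at least 2.26-fold for Cd55. The bounds are limited by the DKO signals, which themselves lay near the level at which probes stop being told from background.

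Cd59a (chromosome 2, 103954688-103954747), the membrane inhibitor of pore formation, went the other way. Its level was 1.02 on the G2KO-labelled array, 0.295 on the array labelled WT of G2KO, 0.00913 on the DKO array and 1.79 on the WT of DKO array. DKO MEFs had 196-fold less signal than their WT, a log2 ratio of -7.62, which ranked 34 from the lowest among the 28378 probes with a ratio. With the normexp background correction the log2 ratio was -5.29, so the size of this difference depends on how background is treated and its direction does not. The DKO signal was close to the floor, with an error of 19.4% by the scanner software's own estimate against 10.0% on the WT of DKO array. Cd59a was also 32.3-fold lower in DKO MEFs than on the array labelled WT of G2KO and 111-fold lower than on the G2KO-labelled array, so the DKO array was the lowest against every other array. The WT arrays differed in Cd59a as well, with a log2 ratio of 2.60 for WT of DKO over WT of G2KO.

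**Figure D2:**
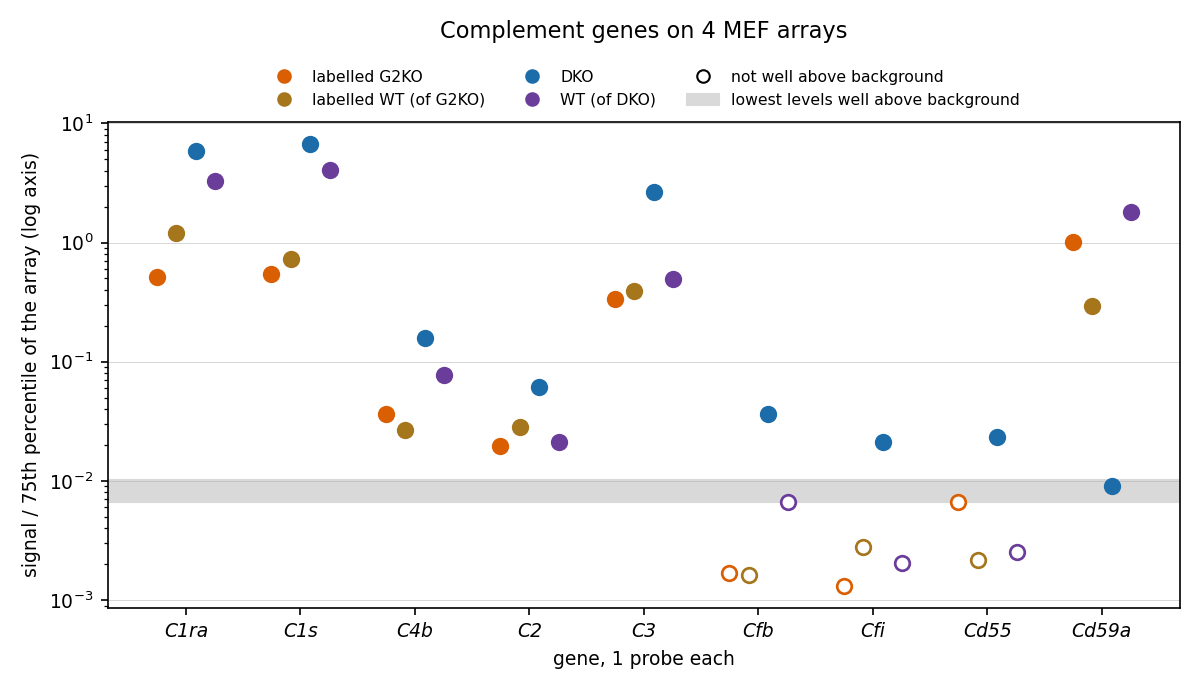
Level of the 9 complement genes on the 4 arrays, 1 probe per gene, as signal over the 75th percentile of the array on a log axis. Filled points were well above background, open points were not, and the grey band spans the lowest levels well above background (0.0066 to 0.0103). Blue points (DKO) are highest for 8 genes and lowest for Cd59a. Open points occur for Cfb, Cfi and Cd55 on every array but DKO.

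Past 4-fold in DKO MEFs, the complement genes were split. C3 was higher and Cd59a lower by at least that much, which is 1 of 9 genes in each direction, whereas 3.93% of the 28378 probes with a ratio were higher and 3.99% were lower. A single gene in each direction says nothing of the 9 as a group. Without that threshold, 8 of 9 genes were higher, with a median log2 ratio of 1.05 when bounds are counted at their value, beside 0.03 over all genes, of which 52.5% were higher. Of the 8, 5 ratios were measured on both arrays, those of C1ra, C1s, C4b, C2 and C3, and the ratios of Cfb, Cfi and Cd55 are bounds. A gene that was dim on the WT array could only enter as higher. The median of 1.05 is itself such a bound, that of Cfi, and the 5 measured ratios lay between 0.74 and 2.44.

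In the pair labelled G2KO, none of the 9 genes differed by 4-fold, beside 3.58% of all probes that were higher and 1.92% that were lower. Cfb, Cfi and Cd55 were dim on both arrays, which left 6 genes with a ratio. C1ra was lower on the G2KO-labelled array, with log2 ratios of -1.22 and -1.45 on its probes, and Cd59a was higher, with a log2 ratio of 1.79. C1s, C2 and C3 had log2 ratios of -0.41, -0.52 and -0.22, and C4b of 0.45. Of the 6, 2 were higher and 4 lower, beside 39.4% and 60.6% of all genes, and their median was -0.32, beside -0.17. Set against the WT of DKO array instead, 0 of the 6 were higher and 6 were lower on the G2KO-labelled array. Over all genes, 43.0% were higher and 57.0% lower. The median of the 6 was -0.95, beside -0.07 over all genes. C4b and Cd59a turned sign with that choice, to log2 ratios of -1.08 and -0.82, and C1ra and C1s were then over 4-fold lower, at -2.67 and -2.90.

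The WT arrays differed from each other by more. C1s and Cd59a were at least 4-fold higher on the WT of DKO array than on the array labelled WT of G2KO, which is 2 of the 6 genes with a ratio, beside 4.57% of all probes, and 0 genes were at least 4-fold lower, beside 2.65%. The median log2 ratio of the 6 genes was 1.49, beside -0.08 over all genes. This comparison shares an array with each of the others, so its values are set beside theirs without being counted as a separate result.

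The choice of the WT array therefore mattered for the size of the DKO differences. Against the array labelled WT of G2KO, C1ra, C1s, C4b, C3 and Cfb were at least 4-fold higher in DKO MEFs, beside 5.67% of all probes, and Cd59a was at least 4-fold lower, beside 3.71%. The log2 ratios in that pairing were 2.27 for C1ra, 3.23 for C1s, 2.57 for C4b and 2.77 for C3, and Cfb was at least 5.04-fold higher. The direction was the same for all 9 genes against either WT array, and both pairings share the DKO array. Cfb, Cfi and Cd55 were dim on both WT arrays and could only enter as higher, so their agreement was fixed in advance.

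**Figure D3:**
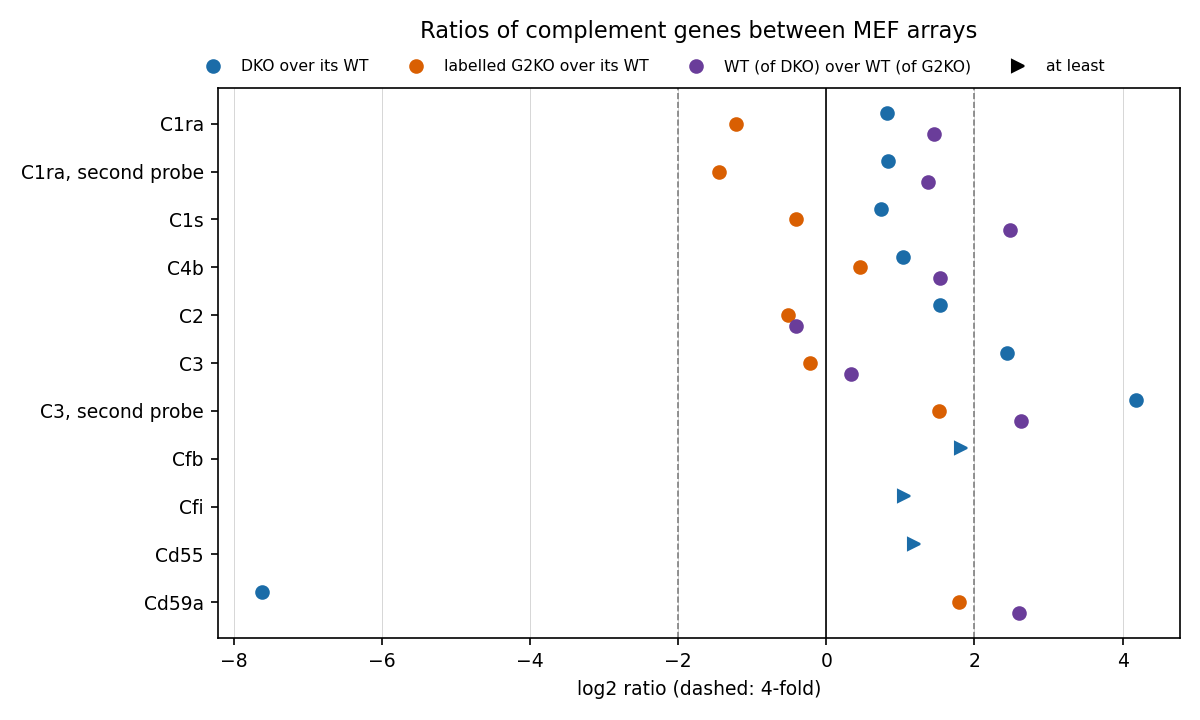
Log2 ratio of every probe of the 9 genes in 3 comparisons (blue, DKO over its WT; orange, the G2KO-labelled array over the array labelled WT of G2KO; purple, WT of DKO over WT of G2KO). Triangles are lower bounds, dashed lines mark 4-fold, and the second probes of C1ra and C3 have rows of their own. Blue symbols lie right of 0 except for Cd59a at -7.62, and the C3 probes are apart at 2.44 and 4.18.

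Beyond these 9, 41 other complement genes on the array were analysed, of which 14 were dim on all arrays and 24 had a ratio between DKO MEFs and their WT. Of the 24, Masp1, Masp2, Cpn2 and C5ar1 were at least 4-fold lower, which is 4 genes, beside 3.99% of all probes, and the median log2 ratio of the 24 was 0.17.

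The classical pathway list lay on one side of 0. For all 7 genes measured, the DKO array was above the WT of DKO array, none of them past 4-fold, and their median log2 ratio was 0.74. Over all genes, 52.5% were higher. C1qa and C1qc, which with C1qb encode the recognition unit of C1, were dim on all arrays. C1qb had a level of 0.0832 to 0.124 with no array apart, and a log2 ratio of 0.11 in DKO MEFs. C1rb and C1rl, relatives of C1ra, had log2 ratios of 0.70 and 0.72.

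The lectin pathway list lay mostly on the other side, with 3 of 4 genes with a ratio lower in DKO MEFs and a median log2 ratio of -1.88. Over all genes, 47.5% were lower. Colec10 was dim in DKO MEFs, so that it could only enter as lower, and its log2 ratio of -1.65 is a bound. Colec11, measured on both arrays, was higher, with a log2 ratio of 0.99. Masp2, a protease that cleaves C4 and C2 after mannose-binding lectins bind, had a level of 0.0113 on the DKO array and 0.0941 on the WT of DKO array, a log2 ratio of -3.06. Its other measured probe was 4.01-fold lower. Masp1, the protease that activates it, had a log2 ratio of -2.11. Its second probe was dim on both arrays of the DKO comparison, and Mbl1, Mbl2, Fcna and Fcnb were dim on all arrays.

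Of the other regulators, Serping1, the inhibitor of C1r and C1s, had a log2 ratio of 1.78 on the brighter probe and 3.11 on the other, so that only the latter lay past 4-fold. On that other probe the G2KO-labelled array was also at least 5.11-fold above the array labelled WT of G2KO. Clu, which encodes clusterin, an inhibitor of pore assembly, had levels of 1.43, 3.35, 11.4 and 4.97 on the arrays labelled G2KO and WT of G2KO and the DKO and WT of DKO arrays. Its log2 ratio was 1.20 in DKO MEFs and -1.23 on the G2KO-labelled array. Cpn2, a subunit of carboxypeptidase N, was dim in DKO MEFs, at least 4.04-fold below the WT of DKO array, which in turn was at least 4.12-fold above the array labelled WT of G2KO. A second Cpn2 probe was dim on all arrays and gave no ratio. Cr1l, the rodent regulator Crry, had levels of 4.07 to 5.52 on all arrays.

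Among terminal pathway genes and receptors, 2 lay past 4-fold in any of the 3 comparisons. C8b, a subunit of the pore, was measured on the G2KO-labelled array alone, at 0.0632, and at least 8.82-fold higher there than on the array labelled WT of G2KO. C5ar1, the receptor of the C5a fragment, was measured on the WT of DKO array alone, at 0.0616. It was at least 8.43-fold lower in DKO MEFs and at least 8.59-fold higher on the WT of DKO array than on the array labelled WT of G2KO. The 4 measured terminal genes Hc, C6, C7 and C8g had log2 ratios between -0.34 and 0.33 in DKO MEFs. Between the arrays labelled WT the C8g probes differed, at 0.18 and 1.86.

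**Figure D4:**
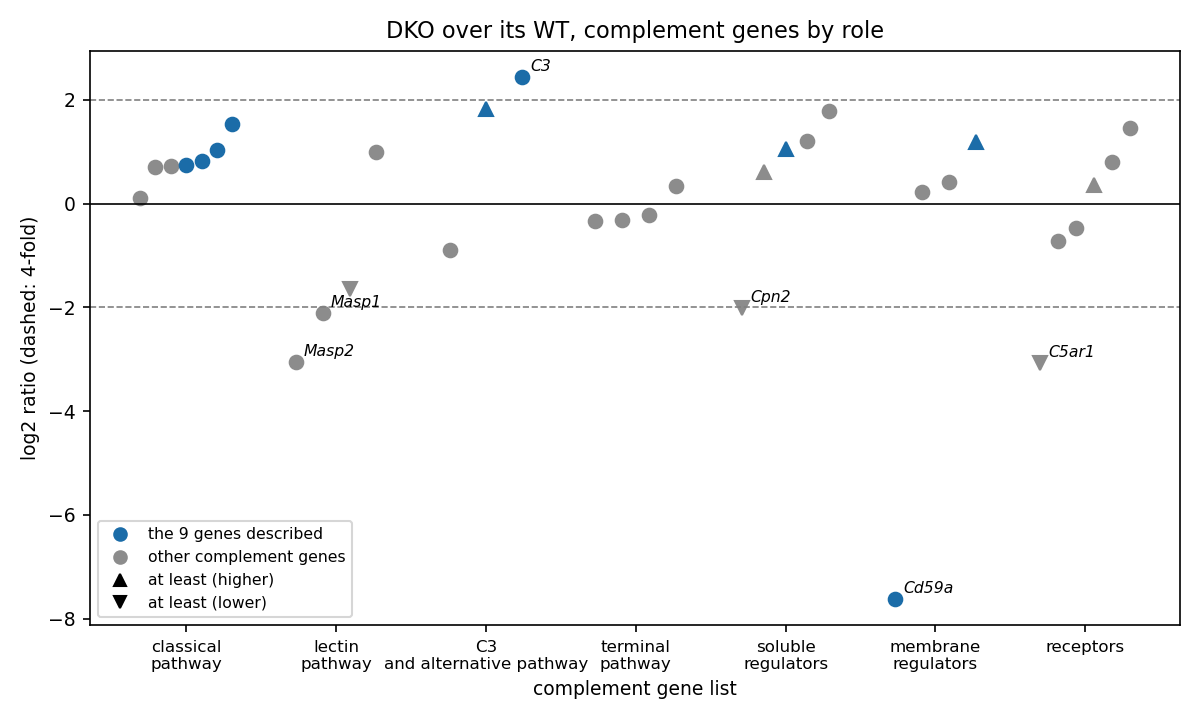
Log2 ratio of DKO over its WT for the complement genes with a ratio, grouped by role, with the 9 genes in blue and other complement genes in grey. Triangles are bounds (up for at least higher, down for at least lower), and genes past 4-fold (dashed) are named. All classical pathway points lie above 0, and of the points drawn C3 stands at 2.44 and Cd59a lowest at -7.62.

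Several of the 9 genes are neighbours. The probes of C1ra, C1s, C1rb and C1rl lie within 64.9 kb of chromosome 6 of mm9, and their log2 ratios in DKO MEFs lay between 0.70 and 0.82. Between the arrays labelled WT the same genes were not alike, as C1rl had a log2 ratio of -0.12 beside 2.49 for C1s. C2 and Cfb lie within 6.13 kb of each other in the class III region of the major histocompatibility complex on chromosome 17, and C4b lies within 134 kb of both. All 3 were highest in DKO MEFs. Cd59b, next to Cd59a within 29.9 kb of chromosome 2, was dim on the DKO and WT of DKO arrays. C1ra, C1s, C4b, Cd55 and Cd59a each have a close copy in the mouse genome, and whether their probes also bind the copy was not tested.

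For the 5 genes that were well above background on all arrays and spanned at least 4-fold, the genes with the most similar profile were sought among 19465 others, by the root mean square distance between log2 levels centred over the 4 arrays. The nearest to C1s was Gm5077, named C1s2 in the reference table, at a distance of 0.08, with levels of 0.562, 0.723, 7.80 and 4.35 on the arrays labelled G2KO and WT of G2KO and the DKO and WT of DKO arrays. The next were Olfr975 (0.18) and 2900073C17Rik (0.34). Nearest to C1ra were Plekha4 (0.10), C1rb (0.17) and Nov (0.31). For Cd59a they were Tmem200a (0.10), Cdh11 (0.25) and Slc38a4 (0.40). Few profiles were this close to C1ra, C1s and Cd59a, as 2 other genes lay within 0.3 of each. C3 and C4b had 50 and 58 such genes, the nearest being Slurp1 (0.07), Slc12a8 (0.07) and Fas (0.08) for C3 and Lifr (0.07), Tmem106a (0.08) and 1700060J05Rik (0.10) for C4b. With 4 arrays these distances rest on 4 points each, and the C3 profile is that of the probe with 1 spot.

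RefSeq promoter sequence (GRCm38.p6) was given for 5 of the 9 genes, C1ra, C1s, C3, Cd55 and Cd59a. The 250 bases before the transcript start are shown for C3 and Cd59a, the genes past 4-fold in DKO MEFs. C3 is read from the minus strand of chr17:57228137-57228386 and Cd59a from the plus strand of chr2:104095551-104095800. Capitals mark matches to 3 motifs searched on both strands, the C/EBP core TTGCNNAA, the interferon-stimulated response element (GAAA, any pair of bases, GAAA) and the gamma-activated site TTCNNNGAA, which do not overlap here.
C3: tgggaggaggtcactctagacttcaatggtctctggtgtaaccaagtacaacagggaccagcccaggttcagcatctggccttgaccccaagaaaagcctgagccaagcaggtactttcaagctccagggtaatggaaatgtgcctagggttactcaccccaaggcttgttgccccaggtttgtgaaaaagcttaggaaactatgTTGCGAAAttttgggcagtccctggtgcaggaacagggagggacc
Cd59a: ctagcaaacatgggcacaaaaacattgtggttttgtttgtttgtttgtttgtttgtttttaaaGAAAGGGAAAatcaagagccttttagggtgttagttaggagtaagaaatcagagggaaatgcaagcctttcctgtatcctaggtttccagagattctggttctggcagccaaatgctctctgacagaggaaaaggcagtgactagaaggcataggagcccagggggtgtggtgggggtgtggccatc
The C3 window holds 1 C/EBP core, whose first base lies 45 bases before the start, and C1s holds 1 at 242 bases in the window of 1 of its starts. The Cd59a window holds 1 interferon-stimulated response element at 187 bases. The windows of C1ra and Cd55 held no match. Over all 32851 promoters of the table, 9.56% of windows of this length held the C/EBP core, 2.98% the response element and 7.02% the gamma-activated site, so a match is a description of the letters and not of binding.

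Gene lists for the signals that the C/EBP core and the interferon element are known for were read beside the complement genes. Of 15 acute-phase and NF-kB responsive genes, 5 were at least 4-fold higher in DKO MEFs (Saa3, Hp, Lcn2, Ccl2 and Ccl7) and 2 were at least 4-fold lower (Cxcl1 and Cxcl5), beside 3.93% and 3.99% of all probes, with a median log2 ratio of 0.37. Genes of this list also differed between the other arrays. On the WT of DKO array 5 were at least 4-fold higher than on the array labelled WT of G2KO, beside 4.57% of all probes. On the G2KO-labelled array 4 were, beside 3.58%. Ccl2, a chemokine for monocytes, had log2 ratios of 3.69 in DKO MEFs, 6.71 in the pair labelled G2KO and 5.43 between the arrays labelled WT. Hp, an acute-phase plasma protein, had a level of 1.49 on the DKO array and 0.0703 on the WT of DKO array. Of 16 interferon-stimulated genes, 5 were at least 4-fold higher (H2-K1, H2-D1, Psmb8, Psmb9 and Tap1) and 2 at least 4-fold lower (Ifit1 and Gbp3), with a median of -0.11. The shares of all probes were again 3.93% and 3.99%. A second H2-K1 probe had a log2 ratio of 1.85, below 4-fold, beside 2.88 on the probe used. Between the arrays labelled WT, 4 of the 16 were at least 4-fold higher on the WT of DKO array, beside 4.57% of all probes. The higher ones serve antigen presentation, and the mRNAs of Cebpb and Cebpd, which encode C/EBP factors, had levels of 8.87 and 7.79 on the DKO array and 6.89 and 11.1 on the WT of DKO array. Their part in the complement result was not tested.

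Markers of cell types also differed on the DKO array. Of 12 fibroblast markers, 10 to 12 were well above background on each array, with a summed level of 403 to 600, Pdgfra and Lum being dim on the array labelled WT of G2KO. Single markers differed more than this sum, also outside the DKO pair. Between the arrays labelled WT, 6 of the 12 were at least 4-fold higher on the WT of DKO array and 0 lower. That stood beside 4.57% and 2.65% of all probes, with a median log2 ratio of the 12 of 2.53. In the pair labelled G2KO, 5 were at least 4-fold higher on the G2KO-labelled array and 0 lower, with a median of 1.03. The shares of all probes there were 3.58% and 1.92%. In DKO MEFs 11 of the 12 were lower than in their WT and 1 was higher, with a median log2 ratio of -1.17. Of the 11, Col1a1, Fn1 and Vim were nearly level, with log2 ratios of -0.03, -0.03 and -0.05. Over all genes, 47.5% were lower in that comparison. Among the 12 markers, Pdgfra, Pdgfrb, Postn, Thy1 and S100a4 were at least 4-fold lower than in their WT, beside 3.99% of all probes. Dcn was at least 4-fold higher, beside 3.93%. Of 12 mesothelial markers, 12 were well above background on the DKO array, with a summed level of 150, against 3 to 5 and a summed level of 0.686 to 1.61 on the others. Wt1, Upk1b, Upk3b, Lrrn4 and Gpm6a were dim on the other 3 arrays. All 12 stood at least 4-fold above the WT of DKO array, beside 3.93% of all probes. Bnc1, Krt19 and Msln were measured on both arrays, and the other ratios are bounds. In the pair labelled G2KO, Krt19, Bnc1 and Krt18 were at least 4-fold higher on the G2KO-labelled array, 3 of 7 with a ratio, beside 3.58% of all probes. The part of the fibroblast and mesothelial markers in the complement differences was not tested.

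The sums of the other marker lists were each carried by 1 bright probe, and without it some of them differed between arrays. Of 12 hepatocyte markers, Alb, Ttr and Fgb were dim on all arrays and the summed level was 2.08 to 2.62, of which Apoa2 made up 1.84 to 2.49. The other 11 summed to 0.532 on the DKO array and 0.112 on the WT of DKO array, 4.76-fold higher. Trf alone made up 0.375 and 0.0216 of these. Trf and Ahsg stood at least 4-fold above the WT of DKO array in DKO MEFs, and a second Apoa2 probe was at least 6.97-fold higher there. Of 11 macrophage markers, Aif1 and Tyrobp were dim on all arrays. The summed level of that list was 12.4 to 23.4, of which Itgam, also a complement receptor gene, made up 11.0 to 22.2. The other 10 summed to 3.85 on the DKO array and 1.20 on the WT of DKO array. Cd14 alone made up 2.88 and 0.348 of these and was at least 4-fold higher in DKO MEFs. The median log2 ratio of the 9 macrophage markers with a ratio was 0.18. Of 8 endothelial markers, Tie1 and Emcn were dim on all arrays, the summed level was 3.13 to 4.48, of which Kdr made up 3.00 to 4.36, and 0 were at least 4-fold different in DKO MEFs on the probes used. A second Kdr probe was at least 3.78-fold higher there, and the other 7 markers summed to 0.161 on the DKO array and 0.144 on the WT of DKO array. The part of these markers in the complement differences was not tested.

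**Figure D5:**
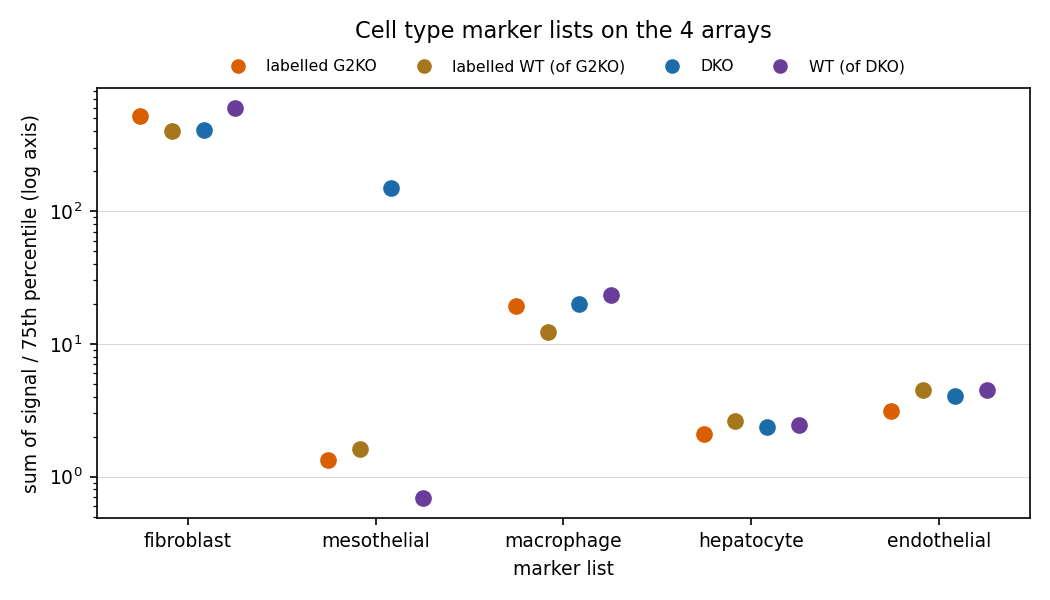
Summed level of 5 marker lists on each array, as the sum of signal over the 75th percentile on a log axis. The mesothelial sum is 150 on the DKO array and 0.686 to 1.61 on the others, while the fibroblast (403 to 600), hepatocyte (2.08 to 2.62), endothelial (3.13 to 4.48) and macrophage (12.4 to 23.4) sums span less. Apoa2, Kdr and Itgam make up most of the last 3 sums, and without them the hepatocyte and macrophage sums are 4.76-fold and 3.20-fold higher on the DKO array than on the WT of DKO array. Trf (0.375) and Cd14 (2.88) make up most of these 2 remainders on the DKO array. Single fibroblast markers differ more than their sum, as 6 of 12 are at least 4-fold higher on the WT of DKO array than on the array labelled WT of G2KO.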

How the data were processed

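Total RNA of 4 MEF cultures was labelled with Cy3 and hybridised to 4 arrays on 1 slide, 1 per group. The deposited intensity of a spot comes from Agilent's Feature Extraction software, whose version is 10.5.1.1 by the submitters' processing notes and 10.7.3.1 by the headers, and was corrected by the authors for background but not scaled between arrays. The deposited value table held the same intensity (largest log2 difference 0) and served as an alternative.

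From these, control spots and 107 to 140 outlier spots per array were left out, spots of a probe were averaged, and signals were divided by the 75th percentile of the array (2234 for the array labelled G2KO, 1586 for the array labelled WT of G2KO, 1777 for DKO, 1877 for WT of DKO). No spot was saturated. For a gene with several probes, the one with the highest mean log2 signal was used, and other probes were given for the 9 genes and, where they bear on a statement, for other genes. A probe dim on 1 array of a pair has a bound, set by the larger of its own level and the lowest level told from background there, and one dim on both has no ratio. Genes were counted past 4-fold. The genes named are the 9 complement genes, other genes of 7 complement lists past 4-fold in any of the 3 comparisons, the 3 nearest profiles of a gene, Ccng1 and Ccng2, and marker genes where 5 or fewer were counted. One gene of the complement lists is not reported here, and the counts and medians of those lists leave it out. Genes and roles named beyond this were chosen after their values were seen. The genes and lists were chosen with earlier results of these data known. With 1 array per group no test was made, and their number limits the precision. The calculation, tested on simulated data for DKO over its WT (39425 probes), found 170 of 170 changes of 3 on the log2 scale among probes measured on both arrays, with 0 false calls. The simulated arrays were copies of the WT of DKO array with little noise, and the changes exceeded the 4-fold threshold. This checks the arithmetic alone and gives no error rate. Between the real arrays compared, log2 ratios had a standard deviation of 0.86 to 1.02. Changed probes that became dim were not counted.

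Alternatives were normexp background correction (offset 50), the deposited table, quantile normalization, unscaled signals, scaling to the array median, other filters on dim probes, other thresholds, the other WT array or the mean of both, and the median over probes. Positions of probes are on mm9 as the files give them. The transcripts of 26055 out of 32334 probes with a RefSeq identifier were found in the GRCm38.p6 table, used for names and promoters alone. Python 3.11.15, numpy 2.4.6, pandas 2.3.3, matplotlib 3.10.9, R 4.3.3 and limma 3.58.1 (normexp) were used. Quantile normalization was done in Python.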

Additional observations from a re-analysis of the deposited data

Results flagged for a closer look

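Cd59a and Clu differed at least 2-fold in opposite directions in the knockout comparisons. The log2 ratio of Cd59a was -7.62 for DKO over its WT and 1.79 for the G2KO-labelled array over the array labelled WT of G2KO. For Clu, an inhibitor of pore assembly outside the 9 genes, the values were 1.20 and -1.23. Each effect rests on 1 array against 1 array, the difference between the comparisons was not tested, and the sign in the second comparison rests on its labels. With those labels exchanged the values would be -1.79 for Cd59a and 1.23 for Clu, of the same sign as in DKO MEFs. Against the WT of DKO array, which it resembled more over all probes, the G2KO-labelled array had log2 ratios of -0.82 for Cd59a and -1.79 for Clu.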

How the results depend on the processing

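Of 68 counts of complement genes past 4-fold, over all settings and comparisons, 57 were unchanged or within 1.5 times, and of 195 ratios of single genes 26 moved by over 1.5 times and 0 reversed a difference past 4-fold. Part of this was fixed in advance, as the deposited table held the same values. The median over probes could move only genes with several probes. Smaller differences did change sign in the comparison of the G2KO-labelled array, the other WT array included. Their log2 ratios ranged from -2.90 to 0.08 for C1s, -0.55 to 0.65 for C3, -1.08 to 0.94 for C4b and -0.82 to 2.28 for Cd59a. Under normexp, quantile normalization, scaling to the median, the deposited table, only probes measured on both arrays and the median over probes, the counts were as reported in all 3 comparisons, and Cd59a was the gene lower in DKO MEFs under every setting run.

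For genes higher in DKO MEFs, the count of 1 (C3) became 4 with dim probes unfiltered (with Cfb, Cfi and Cd55), 6 at 2-fold (C2, C4b, C3, Cfb, Cfi and Cd55), 0 at 10-fold, 5 (C1ra, C1s, C4b, C3 and Cfb) against the array labelled WT of G2KO and 2 (C3 and Cfb) against the mean of both WT arrays. For the G2KO-labelled array, the count of genes higher became 1 (Cd59a) with no scaling and 1 (Cd59a) at 2-fold, and the count lower became 1 (C1ra) at 2-fold and 2 (C1ra and C1s) against the WT of DKO array. Between the WT arrays, the count higher became 4 at 2-fold (C1ra, C1s, C4b and Cd59a) and 0 at 10-fold. The cause of these moves beyond the settings themselves was not tested.

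Among single ratios, normexp lowered the log2 ratio of DKO over its WT to 0.85 for C2 and at least 0.94 for Cfb, and changed it to -5.29 for Cd59a. Normexp shifted the median of all probes in that comparison by 0.11. Without scaling the median shifted by 0.50 in the comparison of the G2KO-labelled array and by 0.25 between the WT arrays, and scaling to the median shifted the latter by -0.18. No paired analysis was possible because each group has 1 array and the labels give no replicate numbers, and no array could be left out for the same reason. Signal over background limits Cfb, Cfi and Cd55, which have bounds in DKO MEFs and no ratio elsewhere in the reported comparisons.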
